A study of Mus musculus with 24 samples.

Results

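A set of 34 genes of the endoplasmic reticulum (ER) stress, unfolded protein and amino acid responses was followed through a time course of mpkCCD cells, a mouse cortical collecting duct cell line that serves as a model of vasopressin action. Members were chosen by name, as chaperones, unfolded protein response genes and Atf4 targets, and were found by matching gene symbols to the Ensembl identifiers of the tables. All 34 were found among the 54432 genes listed, and all 34 passed the filter on low counts that left 29743 genes to test. By role they comprised 14 ER chaperones and folding enzymes, 4 genes of ER-associated degradation, 5 stress sensors and transcription factors, 4 effectors of the integrated stress response, and 7 genes of amino acid synthesis, one-carbon metabolism and transport.

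The study treated wild type cells of C57BL/6 origin with dDAVP, a vasopressin analog that activates the V2 receptor, or with vehicle, for 3, 6, 12 or 24 h. Each of the 8 groups held 3 libraries, 24 in all. Every group shared the same culture: 6 days on a permeable filter in complete medium, then 24 h in minimal medium, with the agent given on the basolateral side. The line is an immortalized epithelial line rather than native tubule, and the labels do not say whether libraries of a group came from separate cultures, so every p-value here reflects library-to-library spread, possibly of technical origin. In bulk RNA, fewer cells of a kind and less RNA per cell cannot be told apart.

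When unfolded proteins collect in the ER, the sensors Ern1 (IRE1), Eif2ak3 (PERK) and Atf6 raise chaperones, folding enzymes and the degradation machinery, in part through the transcription factor Xbp1. Eif2ak3 and other kinases of the integrated stress response phosphorylate eIF2, which lowers general translation and favours translation of Atf4, and Atf4 in turn raises genes of amino acid synthesis, transfer RNA charging and amino acid transport. In collecting duct principal cells vasopressin acts through cyclic AMP and greatly increases synthesis of the water channel Aqp2, a membrane protein that folds in the ER.

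Promoter sequences are shown because the response elements of these pathways are known, and a minority of the members carry them in this window. RefSeq windows of the GRCm38.p6 build, reaching from 250 bases before the transcription start to 50 after it, were matched for 31 of the 34 genes (Psat1 with several starts, of which any could match), and both strands were searched. Positions count from the start, with negative numbers before it, and give the first base of an element as printed, which for a match on the strand opposite to the gene is its downstream end. The ER stress response element, letters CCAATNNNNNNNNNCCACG, to which Atf6 binds together with NF-Y, lay in 8 of 31 members against 0.137% of 27025 genes. Its shorter variant, letters ATTGGNCCACG, lay in 2 members against 0.0444% of all genes. The elements, written in their own orientation with the fixed letters in capitals, were:
Hspa5, first base at -65: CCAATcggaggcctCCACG
Hsp90b1, first base at -212: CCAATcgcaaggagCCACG
Hsp90b1, first base at -89 on the opposite strand: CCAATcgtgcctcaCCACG
Calr, first base at -144 on the opposite strand: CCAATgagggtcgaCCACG
Canx, first base at -145: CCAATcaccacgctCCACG
Pdia6, first base at -98: CCAATgaaaggcggCCACG
Dnajc3, first base at -105: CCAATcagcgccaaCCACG
Creld2, first base at -108 on the opposite strand: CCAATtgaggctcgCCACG
Syvn1, first base at -44: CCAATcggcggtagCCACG
Dnajb11, variant element, first base at 8: ATTGGcCCACG
Herpud1, variant element, first base at -52: ATTGGgCCACG

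The C/EBP-ATF response element, letters TGATGNAA, through which Atf4 acts, lay in 5 of 31 members against 4.51% of all genes. The palindromic cyclic AMP response element, letters TGACGTCA, lay in the window of Ppp1r15a alone, against 2.03% of genes. The shorter core of that element, letters TGACG, lay in 12 of 31 members against 23% of genes, and the letters TGACGTGG in 0 of 31 against 0.714%. A match describes the letters only and is not evidence of binding. The C/EBP-ATF matches in their own orientation, again with fixed letters in capitals, were:
Herpud1, first base at -105 on the opposite strand: TGATGcAA
Trib3, first base at 22 on the opposite strand: TGATGtAA
Chac1, first base at -186 on the opposite strand: TGATGcAA
Asns, first base at -23: TGATGaAA
Slc7a11, first base at -66: TGATGcAA
Slc7a11, first base at -40 on the opposite strand: TGATGcAA

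The upstream stretches of 250 bases of 4 genes are given whole, as examples of a chaperone (Hspa5), a gene with both kinds of element (Herpud1), an amino acid gene (Asns) and the member called in the treatment contrast in both models (Sesn2). They are written in gene orientation, with matches to either ER element or to the C/EBP-ATF element in capitals (in reverse complement where the match is on the other strand). Sesn2 had no match to these letters in this window.
Hspa5, chr2:34771840-34772089, plus strand: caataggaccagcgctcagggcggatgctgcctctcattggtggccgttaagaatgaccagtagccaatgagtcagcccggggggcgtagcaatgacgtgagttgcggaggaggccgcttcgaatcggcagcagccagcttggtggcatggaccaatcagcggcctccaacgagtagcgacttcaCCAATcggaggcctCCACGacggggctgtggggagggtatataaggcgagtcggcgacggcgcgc
Herpud1, chr8:94386179-94386428, plus strand: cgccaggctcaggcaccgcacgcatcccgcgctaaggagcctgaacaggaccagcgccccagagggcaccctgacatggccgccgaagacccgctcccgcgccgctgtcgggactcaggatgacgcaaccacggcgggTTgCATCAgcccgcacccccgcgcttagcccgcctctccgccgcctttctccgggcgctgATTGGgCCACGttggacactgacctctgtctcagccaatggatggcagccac
Asns, chr6:7693210-7693459, minus strand: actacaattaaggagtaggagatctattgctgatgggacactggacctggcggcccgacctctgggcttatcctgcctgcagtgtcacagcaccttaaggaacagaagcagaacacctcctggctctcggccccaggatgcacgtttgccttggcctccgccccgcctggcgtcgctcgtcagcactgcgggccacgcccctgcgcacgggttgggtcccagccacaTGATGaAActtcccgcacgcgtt
Sesn2, chr4:132510457-132510706, minus strand: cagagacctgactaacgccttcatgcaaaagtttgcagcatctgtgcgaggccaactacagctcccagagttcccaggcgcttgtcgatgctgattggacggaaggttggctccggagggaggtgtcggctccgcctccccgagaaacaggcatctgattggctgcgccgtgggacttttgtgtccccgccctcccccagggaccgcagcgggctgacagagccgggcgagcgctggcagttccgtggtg

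Libraries held from 17248060 to 27642311 counts, on 36713 to 46313 genes. Epithelial markers were high in every library (Epcam 537 to 939 CPM, counts scaled to one common library size; Krt8 918 to 1883 CPM). Of the principal cell markers, Aqp2 ranged from 4.13 to 235 CPM and Avpr2, the V2 receptor, from 23.7 to 66.1 CPM. Gata3 ran from 134 to 266 CPM, Scnn1a from 42.9 to 92.9, Hsd11b2 from 8.95 to 26.2 and Scnn1g from 5.57 to 23.6 CPM. Aqp3, Aqp4 and Scnn1b stayed at or below 5.17, 1.89 and 2.04 CPM. The 11 leukocyte, fibroblast and endothelial markers did not exceed 8.55 CPM. Of the proximal tubule markers, Lrp2 lay between 43.7 and 71.4 CPM, whereas Cubn, Slc34a1 and Slc5a2 stayed at or below 4.46, 2.37 and 0.592 CPM. The share of counts on 1962 olfactory and vomeronasal receptor genes, which belong to sensory tissue, varied from 0.14% to 0.933% between libraries. Its group mean was lower with dDAVP at each time, though the libraries overlapped at 3, 12 and 24 h and were apart only at 6 h. At 3, 6, 12 and 24 h its group means were 0.652%, 0.544%, 0.493% and 0.233% in vehicle, and 0.387%, 0.203%, 0.346% and 0.208% with dDAVP. Each contrast was therefore fitted without and with the log2 of that share as a covariate, with the value without it given first; the part of the share in the results was not tested.

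Without treatment the set spanned a wide range of levels. In TPM, a scale per transcript length, vehicle means over all times (SD, n = 12) ran from 288 ± 32.3 for Phgdh, which opens serine synthesis, through 177 ± 14.5 for Hspa5 (BiP, the principal ER chaperone), 160 ± 10.6 for Pdia3, a disulphide isomerase, 155 ± 10.5 for Hsp90b1 (GRP94) and 125 ± 7.70 for the lectin chaperone Calr. Pdia3 and Hsp90b1 did not differ beyond their spread. Atf4 stood at 67.3 ± 6.71 TPM, Xbp1 at 38.7 ± 2.66 TPM and Sesn2 at 6.14 ± 1.21 TPM. The 3 sensors were the scarce members: Atf6 at 4.32 ± 0.540 TPM, Eif2ak3 at 3.20 ± 0.350 TPM and Ern1 at 2.04 ± 0.474 TPM, the lowest of the 34. Slc7a11, the cystine transporter, lay among them at 3.95 ± 1.92 TPM, with the largest spread relative to its mean of the genes named here. Together the 34 genes took 0.627% to 0.686% of counts as group means, the lowest in vehicle at 12 h and the highest with dDAVP at 6 h.

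The first question was which members dDAVP changed. Sesn2, whose product sestrin 2 is a stress-induced leucine sensor that restrains mTORC1, was the member that passed the test with and without the receptor share as a covariate. Sesn2 stood in the vehicle libraries at 25.8, 32.8 and 40.5 CPM at 3 h, 31.2, 30.2 and 32.9 CPM at 6 h, 20.9, 29.5 and 21.6 CPM at 12 h, and 42.8, 42.8 and 41.98 CPM at 24 h. With dDAVP, Sesn2 stood at 44.9, 51.05 and 40.97 CPM at 3 h, 44.8, 42.9 and 47.7 CPM at 6 h, 32.9, 34.6 and 32.98 CPM at 12 h, and 54.7, 45.2 and 47.4 CPM at 24 h. After scaling, every dDAVP library lay above every vehicle library of its time. Averaged over the 4 times, Sesn2 was 1.34-fold higher with dDAVP, a log2 difference of 0.42 ± 0.07 (SE; adjusted p = 0.00034) by the edgeR quasi-likelihood test, adjusted after Benjamini and Hochberg over all genes tested. With the receptor share in the model it was 1.23-fold higher, 0.30 ± 0.06 (SE; adjusted p = 0.0075). By time the log2 difference was 0.47 at 3 h, 0.52 at 6 h, 0.48 at 12 h and 0.21 at 24 h without the covariate, and 0.34, 0.24, 0.44 and 0.18 with it. The mean difference stayed past the threshold in 13 of 13 other settings and in 24 of 24 fits that each left out 1 library, with log2 values from 0.15 to 0.49 and a highest adjusted p of 0.040. The separation at single times rested on the scaling: in unscaled CPM, as in the deposited TPM, the groups were apart at 12 h and overlapped at 3, 6 and 24 h, and at 6 h the TPM difference was -0.0031 (log2 of TPM + 1). Without the small RNA gene that was highest in TPM, that difference was 0.15. Sesn2 (Ensembl ENSMUSG00000028893) is a protein-coding gene at chr4:132492032-132510501, minus strand of GRCm38.

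**Figure D1:**
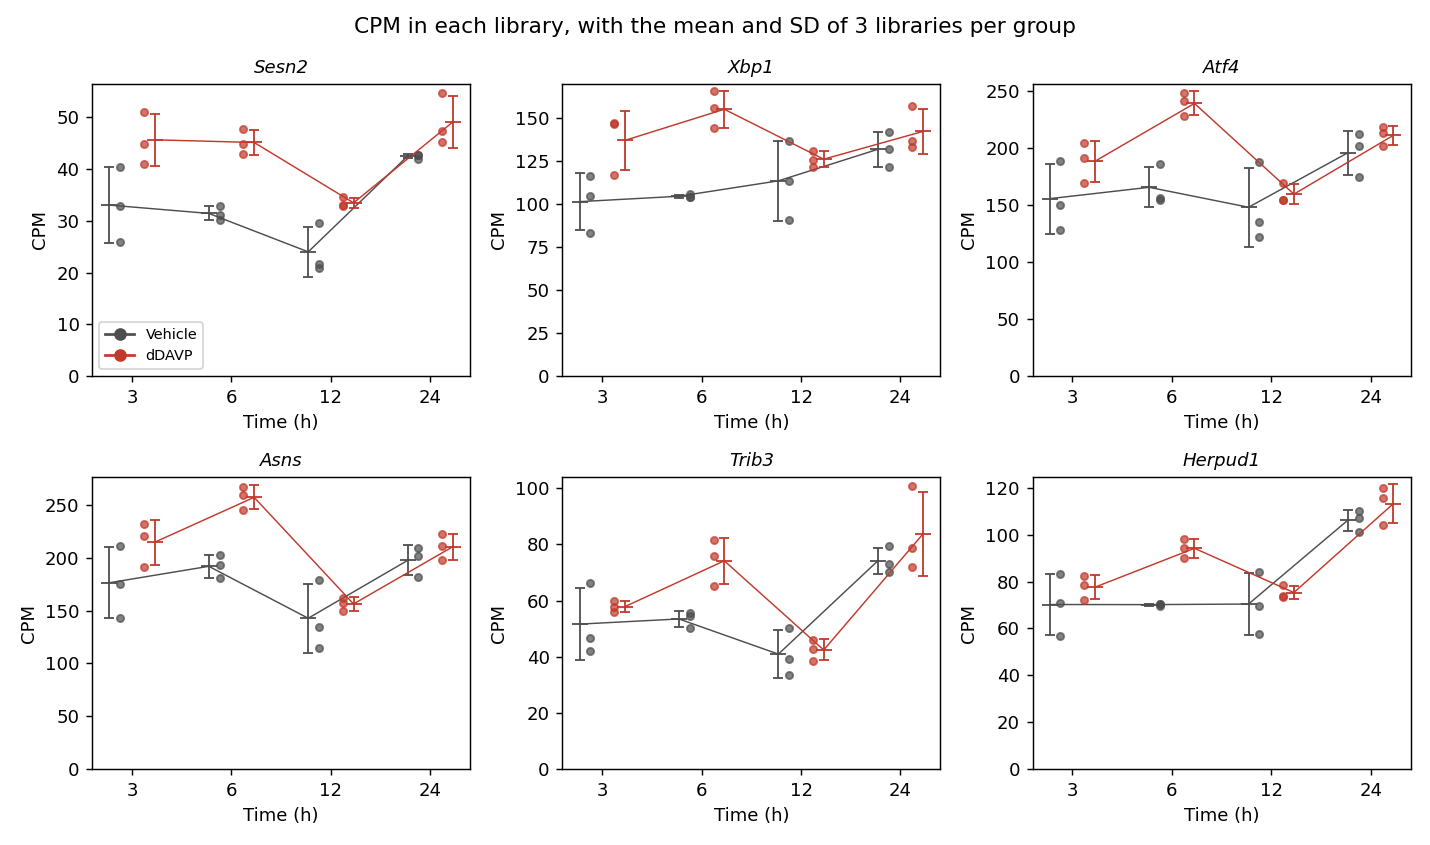
CPM after scaling (y axis, from 0) of Sesn2, Xbp1, Atf4, Asns, Trib3 and Herpud1 against time in h (x axis, evenly spaced), with 1 point per library, vehicle in grey and dDAVP in red, and the mean and SD of 3 libraries per group. Sesn2 with dDAVP lies above vehicle at each time, while Trib3 and Herpud1 are highest at 24 h in both treatments.

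The second pattern was broad and depended on the model. Without the covariate, 29 of the 34 members were higher with dDAVP at 6 h, against 20.9% of all genes tested and 48% of the 12747 genes of at least 5 CPM; with the receptor share as a covariate 0 were called (1 at an unadjusted p under 0.05), against 0.336% of genes called in either direction. The members' median log2 difference at 6 h was 0.42, beside -0.39 over all genes tested and 0.32 over those of at least 5 CPM. It was 0.05 with the covariate, beside 0.04 and 0.02. At 6 h the receptor share of every dDAVP library lay below that of every vehicle library. The 6 h value with the covariate therefore rests on a slope fitted within groups over all times. Treatment and share cannot be told apart at 6 h, so 0 calls there do not show that a dDAVP effect was absent. Whether dDAVP or the share accounts for the 29 calls was not tested. The 29 were 13 of 14 chaperones and folding enzymes, 4 of 4 degradation genes, 3 of 5 sensors and transcription factors, 3 of 4 integrated stress response effectors and 6 of 7 amino acid genes. Those that missed the threshold without the covariate were Dnajb9 (0.21), Ern1 (0.27), Atf6 (0.29), Ppp1r15a (0.40) and Slc7a11 (-0.35). The calls at 6 h were fragile also without the covariate. Leaving out 1 library moved the count past 1.5 times for 16 of the 24 libraries, to 0 without the first or second vehicle library or the first or second dDAVP library of that time. limma on log2 TPM called 2 members at 6 h, both lower with dDAVP, and DESeq2 called 27, all higher. In TPM, 1 small RNA gene held 49.0% to 51.7% with dDAVP at 6 h, against 43.2% to 46.9% in vehicle. Without that gene, a setting chosen after seeing the data, limma called 0 members at 6 h. The members' median on log2 TPM + 1 was then 0.05, beside -0.10 with the gene kept.

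Averaged over the 4 times, 24 members were higher with dDAVP without the covariate, against 16.7% of all genes tested and 38.4% of genes of at least 5 CPM. With the covariate 1 was higher, Sesn2, against 0.945% of genes. The median log2 mean difference was 0.20 over the members, -0.20 over all genes and 0.14 over those of at least 5 CPM. With the covariate the 3 medians were 0.04, 0.02 and 0.02. Leaving out 1 library moved the count of 24 to between 2 and 32. limma on log2 TPM + 1 called 5 members, 1 higher (Sesn2) and 4 lower (Sel1l, Eif2ak3, Phgdh and Slc7a11), and the members' median was -0.05 on that scale. Without the small RNA gene highest in TPM it called Xbp1 and Sesn2, and the median was 0.02. With edgeR the median stayed above 0 under other scalings, at 0.27 with median-of-ratios factors and 0.03 without factors. Raw shares moved little: the 34 genes together took 0.663%, 0.661%, 0.627% and 0.676% of counts in vehicle at the 4 times, and 0.677%, 0.686%, 0.635% and 0.684% with dDAVP.

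At 3 h, 12 h and 24 h the edgeR test called 0 of the 34 members without the covariate, against 0.484%, 0.0773% and 0.0841% of all genes in either direction, and 0 with it, against 0.726%, 0.296% and 0.35%. At an unadjusted p under 0.05 the members numbered 9, 1 and 0 without the covariate and 4, 2 and 3 with it. DESeq2 and limma on TPM also called 0 members at these times. The median log2 difference without the covariate was 0.24 at 3 h, 0.10 at 12 h and 0.04 at 24 h. A test of whether the dDAVP effect differed between times called 0 members in either model, against 0.343% of genes without and 0.256% with the covariate (2 members at an unadjusted p under 0.05 in each), and 0 by DESeq2 and limma. After scaling, all 3 dDAVP libraries lay above all 3 vehicle libraries for 4 members at 3 h, 31 at 6 h, 1 at 12 h and 3 at 24 h, against 4.04%, 29.8%, 2.47% and 4.25% of all genes tested and 7.70%, 66.9%, 3.72% and 6.65% of genes of at least 5 CPM. The members concerned were Syvn1, Edem1, Xbp1 and Sesn2 at 3 h, Sesn2 at 12 h, and Dnajc3, Sesn2 and Psat1 at 24 h.

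**Figure D2:**
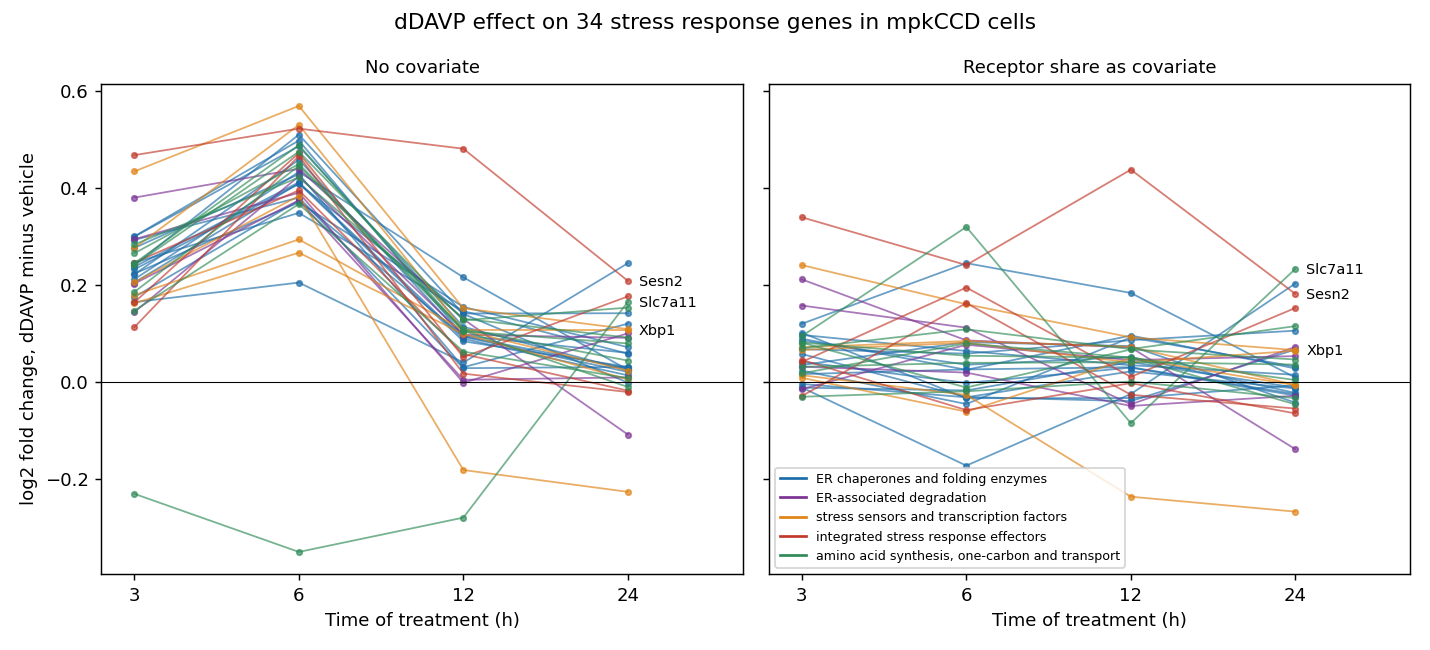
Log2 fold change of dDAVP against vehicle (y axis) at 3, 6, 12 and 24 h (x axis) for each of the 34 genes, coloured by role, without the covariate on the left and with the receptor share as covariate on the right. On the left the median is highest at 6 h, at 0.42, though Slc7a11 lies below 0 there. On the right the lines centre near 0 with Sesn2 at the top on average.

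The link between the receptor share and the members was close. In the model with the share, 32 of the 34 members fell as it rose, against 31.3% of all genes tested and 71.3% of genes of at least 5 CPM, with a median log2 slope per doubling of the share of -0.26 (all genes 0.37; genes of at least 5 CPM -0.21). Slc7a11 was the 1 member that rose with it, by 0.46 ± 0.05 (SE), and Ern1 was not called. The sum of the 34 genes ran from 4762 to 8337 CPM over the libraries after scaling and from 6036 to 7118 CPM without it. With the share in the model, edgeR's estimate of the biological coefficient of variation fell from 0.191 to 0.0797.

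**Figure D3:**
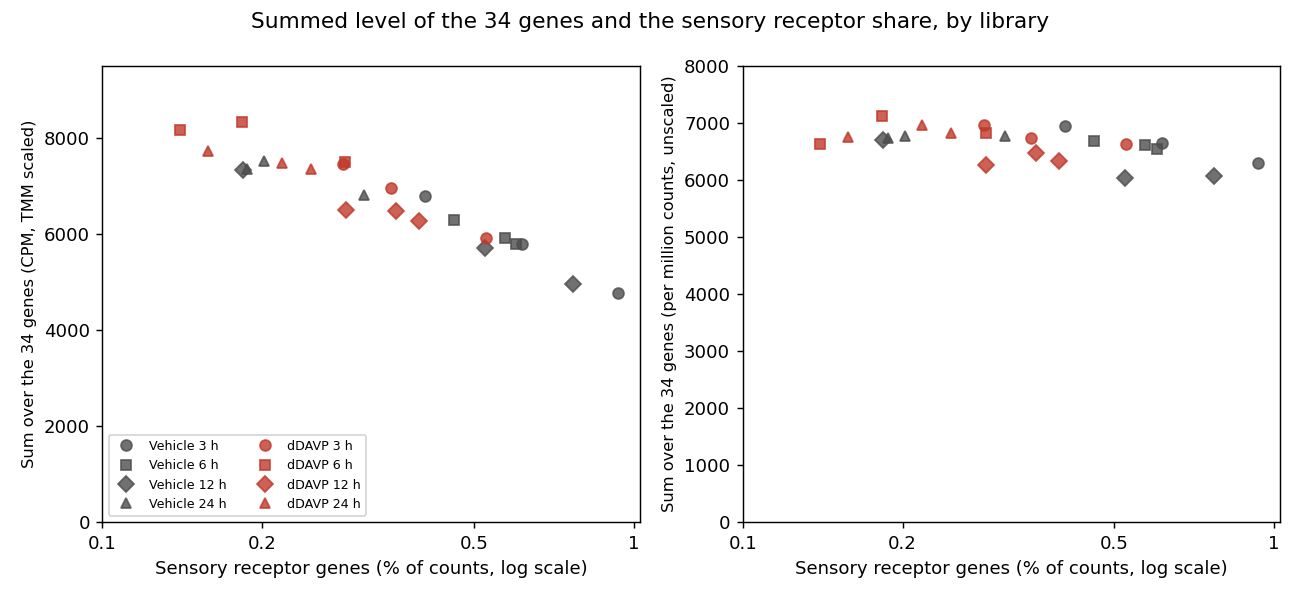
Sum of the 34 genes per library (y axis, from 0) against the sensory receptor share of counts in percent (x axis, log scale), with scaled CPM on the left and unscaled CPM on the right, vehicle in grey, dDAVP in red and a symbol for each time. The scaled sum runs from 4762 to 8337 and is lower where the share is higher, the unscaled sum stays between 6036 and 7118.

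Among the chaperones and folding enzymes, Hspa5 (BiP) also holds the stress sensors inactive. Hspa5 stood in the vehicle libraries at 462, 584 and 678 CPM at 3 h, 581, 579 and 641 CPM at 6 h, 472, 739 and 538 CPM at 12 h, and 706, 713 and 648 CPM at 24 h. With dDAVP, Hspa5 stood at 563, 739.7 and 685 CPM at 3 h, 828, 815 and 749.9 CPM at 6 h, 601, 629 and 625 CPM at 12 h, and 708, 715 and 691 CPM at 24 h. The 6 h groups did not overlap, whereas those at 3, 12 and 24 h did. The mean log2 difference of Hspa5 was 0.18 ± 0.07 (SE; adjusted p = 0.055) without and -0.01 ± 0.04 (SE; adjusted p = 0.99) with the covariate. Calr, which holds glycoproteins until they fold, was the other abundant chaperone given in full. Calr stood in the vehicle libraries at 216, 275 and 309 CPM at 3 h, 274, 279 and 286 CPM at 6 h, 264, 414 and 326 CPM at 12 h, and 369, 376 and 330.3 CPM at 24 h. With dDAVP, Calr stood at 287, 358 and 342 CPM at 3 h, 404, 417 and 364 CPM at 6 h, 379, 335 and 359 CPM at 12 h, and 370.1, 398 and 353 CPM at 24 h. Its mean difference was 0.24 ± 0.07 (SE; adjusted p = 0.023), and 0.05 ± 0.04 (SE; adjusted p = 0.77) with the covariate.

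Dnajc3 (p58IPK), a Hsp40 co-chaperone that also inhibits the eIF2 kinases, was separated at 6 and 24 h. Dnajc3 stood in the vehicle libraries at 51.00, 64.9 and 71.2 CPM at 3 h, 60.7, 57.6 and 65.6 CPM at 6 h, 50.2, 69.5 and 54.8 CPM at 12 h, and 73.98, 73.7 and 72.3 CPM at 24 h. With dDAVP, Dnajc3 stood at 65.2, 80.1 and 74.5 CPM at 3 h, 89.5, 82.6 and 72.1 CPM at 6 h, 64.5, 64.4 and 63.6 CPM at 12 h, and 79.4, 81.5 and 81.9 CPM at 24 h. Its mean difference was 0.23 ± 0.06 (SE; adjusted p = 0.019) without and 0.08 ± 0.04 (SE; adjusted p = 0.64) with the covariate. Hyou1 (GRP170), a nucleotide exchange factor for Hspa5, kept more of its estimate with the covariate. Hyou1 stood in the vehicle libraries at 69.9, 81.1 and 89.01 CPM at 3 h, 86.5, 76.5 and 85.4 CPM at 6 h, 64.1, 80.6 and 68.1 CPM at 12 h, and 87.02, 82.8 and 87.8 CPM at 24 h. With dDAVP, Hyou1 stood at 81.7, 104 and 92.4 CPM at 3 h, 115, 108 and 112 CPM at 6 h, 70.9, 95.99 and 80.3 CPM at 12 h, and 92.95, 74.3 and 94.9 CPM at 24 h. The mean difference of Hyou1 was 0.22 ± 0.06 (SE; adjusted p = 0.021), and 0.14 ± 0.06 (SE; adjusted p = 0.54) with the covariate. Across all 14 chaperones the mean log2 differences ran from 0.16 to 0.24 without the covariate, 12 of them called beside the 16.7% of all genes and 38.4% of genes of at least 5 CPM given above, and from -0.01 to 0.14 with it, 0 called. The others were Hsp90b1, Canx, Pdia3, Pdia4, Pdia6, Dnajb9, Dnajb11, Sdf2l1, Manf and Creld2.

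In ER-associated degradation, Syvn1 (HRD1) is the ubiquitin ligase of the retrotranslocation channel and Edem1 directs misfolded glycoproteins to it. Syvn1 stood in the vehicle libraries at 30.9, 39.4 and 42.6 CPM at 3 h, 38.4, 37.5 and 39.3 CPM at 6 h, 30.3, 43.9 and 35.9 CPM at 12 h, and 52.5, 50.1 and 43.2 CPM at 24 h. With dDAVP, Syvn1 stood at 44.6, 54.1 and 48.2 CPM at 3 h, 56.3, 49.6 and 50.3 CPM at 6 h, 38.2, 36.8 and 45.4 CPM at 12 h, and 46.5, 43.5 and 45.2 CPM at 24 h. Edem1 stood in the vehicle libraries at 33.1, 34.99 and 38.5 CPM at 3 h, 36.4, 36.1 and 37.2 CPM at 6 h, 33.3, 45.1 and 39.6 CPM at 12 h, and 44.6, 45.7 and 41.3 CPM at 24 h. With dDAVP, Edem1 stood at 38.8, 46.8 and 45.2 CPM at 3 h, 52.9, 47.6 and 43.3 CPM at 6 h, 39.6, 39.5 and 38.8 CPM at 12 h, and 47.8, 48.4 and 44.96 CPM at 24 h. Both genes were apart at 3 and 6 h and overlapped at 12 and 24 h, and the 24 h log2 difference of Syvn1 was below 0 (-0.11). Their mean differences were 0.21 ± 0.06 (SE; adjusted p = 0.025) for Syvn1 and 0.20 ± 0.05 (SE; adjusted p = 0.02) for Edem1. With the covariate they were 0.06 ± 0.05 (SE; adjusted p = 0.82) and 0.07 ± 0.04 (SE; adjusted p = 0.65). Of the other degradation genes, Herpud1 had a mean difference of 0.19 ± 0.06 (SE; adjusted p = 0.029), or 0.04 with the covariate, and Sel1l, the partner of Syvn1, 0.15 ± 0.06 (SE; adjusted p = 0.06), or -0.01.

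Among the sensors and transcription factors, Xbp1, whose messenger RNA is spliced by Ern1 to yield the active factor, had the next smallest p after Sesn2. Xbp1 stood in the vehicle libraries at 83.1, 105 and 116 CPM at 3 h, 104, 105 and 104 CPM at 6 h, 90.3, 136 and 113 CPM at 12 h, and 142, 132 and 121 CPM at 24 h. With dDAVP, Xbp1 stood at 117, 147 and 146 CPM at 3 h, 156, 165 and 144 CPM at 6 h, 131, 125 and 122 CPM at 12 h, and 133, 157 and 136 CPM at 24 h. The groups were apart at 3 h and 6 h. The mean difference of Xbp1 was 0.32 ± 0.07 (SE; adjusted p = 0.0065), a 1.25-fold difference, and 0.14 ± 0.04 (SE; adjusted p = 0.13) with the covariate. It was called in 9 of 13 other settings and in 24 of 24 fits that left out 1 library. Total Xbp1 RNA is what was counted, and spliced and unspliced forms are not separated by these gene totals.

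Atf4 stood in the vehicle libraries at 128, 149.8 and 188 CPM at 3 h, 156, 154 and 186 CPM at 6 h, 122, 187 and 135 CPM at 12 h, and 201, 212 and 174 CPM at 24 h. With dDAVP, Atf4 stood at 169, 205 and 191 CPM at 3 h, 241, 248 and 228 CPM at 6 h, 154, 154 and 169 CPM at 12 h, and 201, 218 and 213 CPM at 24 h. Atf4 was apart at 6 h and overlapped at the other times. Its mean difference was 0.26 ± 0.07 (SE; adjusted p = 0.021), and 0.06 ± 0.04 (SE; adjusted p = 0.72) with the covariate. The sensors did not pass the test for the mean difference in either model: Atf6 stood at 0.15 and -0.00 without and with the covariate, Ern1 at 0.13 and 0.06, and Eif2ak3 at 0.05 and -0.13. The direction of Eif2ak3 depended on the setting. It was called higher at 6 h without the covariate. Its mean difference was called in 3 of 13 other settings, among them limma on log2 TPM + 1, where it was lower with dDAVP.

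Among the integrated stress response effectors, Trib3, a pseudokinase that damps Atf4 activity, was apart at 6 h only. Trib3 stood in the vehicle libraries at 42.05, 46.7 and 66.2 CPM at 3 h, 54.6, 50.1 and 55.8 CPM at 6 h, 33.6, 50.1 and 39.3 CPM at 12 h, and 73.02, 79.3 and 70.2 CPM at 24 h. With dDAVP, Trib3 stood at 59.8, 57.8 and 55.97 CPM at 3 h, 81.5, 65.2 and 75.8 CPM at 6 h, 38.5, 45.9 and 42.9 CPM at 12 h, and 101, 71.98 and 78.8 CPM at 24 h. Its mean dDAVP difference was 0.22 ± 0.08 (SE; adjusted p = 0.036) without and 0.10 ± 0.07 (SE; adjusted p = 0.79) with the covariate. Chac1, which degrades glutathione, and Ppp1r15a (GADD34), which returns phosphatase to eIF2, had mean differences of 0.14 and 0.17, neither called, and 0.01 and -0.02 with the covariate.

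Of the amino acid genes, 5 of 7 were called in the mean difference without the covariate, beside 16.7% of all genes and 38.4% of genes of at least 5 CPM, and 0 with it. Asns makes asparagine and is a textbook Atf4 target. Asns stood in the vehicle libraries at 143, 175 and 211 CPM at 3 h, 193, 180.4 and 202 CPM at 6 h, 115, 179 and 135 CPM at 12 h, and 202, 209 and 182 CPM at 24 h. With dDAVP, Asns stood at 191, 232 and 221 CPM at 3 h, 267, 259 and 245 CPM at 6 h, 149, 158 and 162 CPM at 12 h, and 211, 222 and 198 CPM at 24 h. Asns was apart at 6 h, with a mean difference of 0.23 ± 0.07 (SE; adjusted p = 0.023), and 0.05 ± 0.04 (SE; adjusted p = 0.8) with the covariate. Psat1 catalyses the next step after Phgdh in serine synthesis. Psat1 stood in the vehicle libraries at 255, 316 and 371 CPM at 3 h, 339, 305 and 344 CPM at 6 h, 223, 312 and 255 CPM at 12 h, and 332, 357 and 314 CPM at 24 h. With dDAVP, Psat1 stood at 326, 406 and 381 CPM at 3 h, 482, 459 and 434 CPM at 6 h, 280.0, 291 and 292 CPM at 12 h, and 365, 387 and 364 CPM at 24 h. It was apart at 6 and 24 h, and its mean difference was 0.25 ± 0.06 (SE; adjusted p = 0.019), and 0.09 ± 0.04 (SE; adjusted p = 0.51) with the covariate.

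Mthfd2 is the mitochondrial enzyme of one-carbon metabolism and Slc3a2 the heavy chain of amino acid exchangers, among them the pair with Slc7a11. Mthfd2 stood in the vehicle libraries at 84.1, 99.5 and 120.4 CPM at 3 h, 108, 99.8 and 113 CPM at 6 h, 72.9, 117 and 87.1 CPM at 12 h, and 133, 131 and 117 CPM at 24 h. With dDAVP, Mthfd2 stood at 103, 132 and 126 CPM at 3 h, 158, 153 and 139.8 CPM at 6 h, 92.7, 103 and 102 CPM at 12 h, and 141, 134 and 128 CPM at 24 h. Slc3a2 stood in the vehicle libraries at 132, 159.7 and 182 CPM at 3 h, 167, 161 and 177 CPM at 6 h, 135, 202 and 159 CPM at 12 h, and 207, 221 and 187 CPM at 24 h. With dDAVP, Slc3a2 stood at 174, 200.2 and 196 CPM at 3 h, 229, 246 and 216 CPM at 6 h, 175, 179.6 and 180.2 CPM at 12 h, and 208, 223 and 204 CPM at 24 h. Each was apart at 6 h. The mean difference of Mthfd2 was 0.23 ± 0.07 (SE; adjusted p = 0.025), and 0.04 ± 0.04 (SE; adjusted p = 0.86) with the covariate. That of Slc3a2 was 0.22 ± 0.06 (SE; adjusted p = 0.022), and 0.05 ± 0.03 (SE; adjusted p = 0.75) with the covariate.

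Slc7a11, chosen for full display after its values were seen, ran against the rest of the set. Slc7a11 stood in the vehicle libraries at 33.3, 29.00 and 26.3 CPM at 3 h, 27.2, 24.9 and 25.2 CPM at 6 h, 29.98, 14.1 and 24.1 CPM at 12 h, and 16.4, 15.8 and 18.8 CPM at 24 h. With dDAVP, Slc7a11 stood at 30.6, 21.3 and 23.6 CPM at 3 h, 20.00, 17.6 and 22.9 CPM at 6 h, 22.6, 17.2 and 16.6 CPM at 12 h, and 21.2, 15.4 and 20.5 CPM at 24 h. At 6 h all dDAVP libraries lay below all vehicle libraries, and the mean difference was -0.17 ± 0.10 (SE; adjusted p = 0.15). With the covariate it was 0.14 ± 0.06 (SE; adjusted p = 0.44), of the opposite sign. Its partner Slc3a2 had the sign of the other members.

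The third pattern was time. Each time had its own libraries, so harvest and any other difference between those sets cannot be told apart from time. The spread within groups does not measure such differences. Averaged over vehicle and dDAVP, Trib3, Chac1, Sesn2 and Asns fell between 6 and 12 h and rose again by 24 h. The contrasts of 12 h with 6 h and of 24 h with 12 h were not among the planned tests. Their settings were chosen after the data were seen. Their adjusted p-values and counts of settings are therefore not independent support for this course. In all, 9 members were lower at 12 h than at 6 h without the covariate, against 1.45% of genes tested, and 16 with it, against 4.93%. Shares given for changes with time are over all genes tested, of which 12747 reached 5 CPM, as all 34 members did. Shares over genes of at least 5 CPM are not given for these changes. For dDAVP at 6 h and in the mean effect they were larger than the shares over all genes. By role the 9 were 1 of 14 chaperones (Hyou1), 0 of 4 degradation genes, 1 of 5 sensors and factors (Atf4), 3 of 4 effectors (Trib3, Chac1, Sesn2) and 4 of 7 amino acid genes (Asns, Psat1, Shmt2, Mthfd2). With the covariate 7 of 7 amino acid genes were lower. The median log2 change was -0.41 over the effectors and -0.41 over the amino acid genes, -0.04 over the chaperones and 0.08 over all genes tested. With the covariate these medians were -0.37, -0.35, 0.01 and -0.01.

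Between 12 h and 24 h, 15 members rose without the covariate, against 4.63% of genes, and 5 with it, against 0.161%. The 5 were Herpud1, Trib3, Chac1, Sesn2 and Asns. The median log2 change over the effectors was 0.72, or 0.56 with the covariate, beside -0.27 and -0.00 over all genes tested. The medians over all genes include genes of low counts, so members were not compared here with genes of like level. Over the chaperones it was 0.18, or -0.02 with the covariate. Taking vehicle alone, 8 members changed with time against 10.1% of genes, and 10 with the covariate against 2.59%. With dDAVP alone 6 changed against 2.28%, and 15 with the covariate against 9.01%.

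Trib3 showed the widest course. In its values above, vehicle went from 50.1 to 55.8 CPM at 6 h to 33.6 to 50.1 CPM at 12 h and 70.2 to 79.3 CPM at 24 h, and dDAVP from 65.2 to 81.5 CPM through 38.5 to 45.9 CPM to 72.0 to 101 CPM. The log2 change from 6 to 12 h was -0.60 ± 0.11 (SE; adjusted p = 0.0019), and -0.56 ± 0.09 (SE; adjusted p = 7.1e-05) with the covariate. From 12 to 24 h it was 0.92 ± 0.11 (SE; adjusted p = 0.00012), a 1.89-fold rise, and 0.77 ± 0.10 (SE; adjusted p = 7.8e-05) with the covariate. Both changes were called in 13 of 13 other settings and 24 of 24 fits that left out 1 library. Sesn2 changed by -0.41 and then 0.69 on the log2 scale, or -0.38 and 0.54 with the covariate, and its 24 h libraries, at 42.0 to 54.7 CPM, did not overlap its 12 h libraries, at 20.9 to 34.6 CPM. The falls of Sesn2 and Chac1 from 6 to 12 h were less stable: each was called in 11 of 24 fits that left out 1 library, and in 9 and 8 of 13 other settings. Their rises to 24 h were called in all 24 and all 13.

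Chac1, Herpud1 and Shmt2 are given in full here after their values were seen. Chac1 stood in the vehicle libraries at 27.6, 30.5 and 37.98 CPM at 3 h, 33.2, 29.9 and 33.9 CPM at 6 h, 22.7, 34.8 and 28.4 CPM at 12 h, and 50.01, 47.9 and 47.7 CPM at 24 h. With dDAVP, Chac1 stood at 33.6, 33.3 and 37.1 CPM at 3 h, 47.4, 41.7 and 44.7 CPM at 6 h, 26.00, 32.8 and 28.01 CPM at 12 h, and 52.2, 49.6 and 41.8 CPM at 24 h. All 24 h libraries of Chac1 lay above all 12 h libraries, with a log2 rise of 0.74 ± 0.10 (SE; adjusted p = 0.0003), and 0.58 ± 0.08 (SE; adjusted p = 0.00016) with the covariate. Herpud1 is a ubiquitin-like scaffold of the degradation complex. Herpud1 stood in the vehicle libraries at 56.9, 70.7 and 83.00 CPM at 3 h, 69.7, 70.4 and 70.3 CPM at 6 h, 57.5, 84.2 and 69.6 CPM at 12 h, and 110.0, 107 and 101 CPM at 24 h. With dDAVP, Herpud1 stood at 72.05, 78.4 and 82.4 CPM at 3 h, 98.3, 94.3 and 89.9 CPM at 6 h, 73.3, 78.6 and 73.96 CPM at 12 h, and 116, 119.9 and 104 CPM at 24 h. Its log2 change from 6 to 12 h was -0.16 and was not called, and it was 1.51-fold higher at 24 h than at 12 h, 0.59 ± 0.09 (SE; adjusted p = 0.00086), and 0.40 ± 0.06 (SE; adjusted p = 0.00019) with the covariate. Here too no 12 h library reached a 24 h library.

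Shmt2 turns serine to glycine in mitochondria. Shmt2 stood in the vehicle libraries at 211, 267 and 321 CPM at 3 h, 278, 252 and 281 CPM at 6 h, 170.1, 251 and 196 CPM at 12 h, and 266, 278 and 256 CPM at 24 h. With dDAVP, Shmt2 stood at 278, 332 and 298 CPM at 3 h, 379.5, 371 and 355 CPM at 6 h, 205, 234 and 225 CPM at 12 h, and 270.4, 256 and 268 CPM at 24 h. In both treatments its 12 h libraries lay below its 6 h libraries. The log2 change from 6 to 12 h was -0.57 ± 0.09 (SE; adjusted p = 0.00081) for Shmt2, -0.57 ± 0.10 (SE; adjusted p = 0.00092) for Asns and -0.50 ± 0.09 (SE; adjusted p = 0.0023) for Psat1. With the covariate the 3 changes were -0.52, -0.52 and -0.45. Shmt2 and Asns were called lower in 13 of 13 other settings and Psat1 in 12, and all 3 in 24 of 24 fits that left out 1 library. Asns then rose by 0.45 ± 0.10 (SE; adjusted p = 0.022) from 12 to 24 h, called in 12 of 13 other settings and 16 of 24 fits that left out 1 library, and by 0.22 with the covariate. Atf4 RNA itself moved by -0.37 ± 0.10 (SE; adjusted p = 0.047) and then 0.40 ± 0.10 (SE; adjusted p = 0.031), of which the fall was called in 3 and the rise in 16 of 24 fits that left out 1 library, and each in 9 of 13 other settings. With the covariate Atf4 moved by -0.31 ± 0.04 (SE; adjusted p = 1.9e-05) and 0.16 ± 0.05 (SE; adjusted p = 0.23).

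The chaperones divided between 6 and 12 h when the receptor share was in the model. Hsp90b1 (0.27), Pdia4 (0.16) and Sdf2l1 (0.16) were higher at 12 h, whereas Hyou1 (-0.31), Dnajb11 (-0.25), Manf (-0.17), Dnajc3 (-0.16) and Hspa5 (-0.15) were lower, all by edgeR at an adjusted p under the threshold. Without the covariate Hyou1 alone of the 14 was called, but with a 5 CPM filter or without scaling factors, also without the covariate, all of these genes and Calr were called. No chaperone was called with median-of-ratios scaling, DESeq2, no filter on low counts, or without the 2 libraries of highest receptor share. limma on log2 TPM + 1 called Hsp90b1, Calr, Pdia4 and Sdf2l1, and none of the genes given above as lower. Counts over time moved with single libraries. The second vehicle library at 12 h had a receptor share of 0.184%, against 0.770% and 0.525% in the other two, and without it the members lower at 12 h numbered 15 and those higher at 24 h numbered 30. Over all libraries left out in turn the counts ran from 4 to 15 and from 4 to 30, past 1.5 times the full count for 14 and 10 of the 24 libraries.

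**Figure D4:**
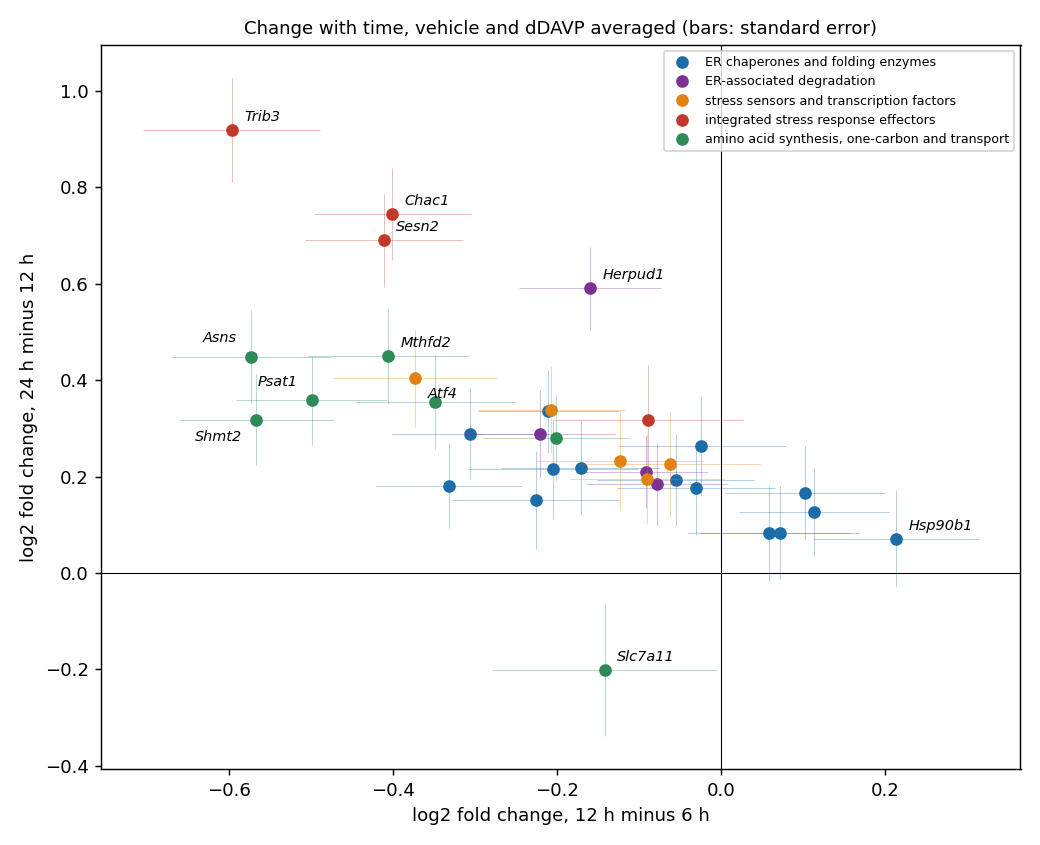
Log2 change from 6 to 12 h (x axis) against log2 change from 12 to 24 h (y axis), vehicle and dDAVP averaged, for the 34 genes coloured by role, with bars of 1 standard error. Trib3, Chac1 and Sesn2 lie at the upper left, falling and then rising, and Hsp90b1 lies to the right of 0.

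Further genes of the same pathways were taken from 6 lists of 146 genes. In the mean dDAVP difference without the covariate, 20 of 32 other ER folding and translocon genes, 14 of 22 other degradation genes, 11 of 28 other stress regulators, 8 of 28 other amino acid genes, 20 of 21 genes of transfer RNA charging and export, and 11 of 14 cytosolic heat shock genes tested were higher, and 1 regulator and 1 amino acid gene were lower. Over all genes tested 16.7% were higher, and over genes of at least 5 CPM 38.4%, close to the shares among the regulators and amino acid genes. With the covariate 1 folding gene was higher, 1 amino acid gene was lower, and 0 were called in the lists of degradation, regulators, transfer RNA charging and heat shock. The folding gene was Dnajb2, a Hsp40 co-chaperone, with 0.66 ± 0.06 (SE; adjusted p = 9.6e-09) without and 0.56 ± 0.05 (SE; adjusted p = 1e-08) with the covariate. Sesn1, the relative of Sesn2, was lower with the covariate, -0.26 ± 0.05 (SE; adjusted p = 0.0068), with -0.11 ± 0.07 (SE; adjusted p = 0.19) without it, and is named after its values were seen. Ero1l, the oxidase that recharges disulphide isomerases, had 0.35 ± 0.07 (SE; adjusted p = 0.0034) without and 0.20 ± 0.06 (SE; adjusted p = 0.12) with the covariate.

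Of the remaining genes named by smallest p, the mean log2 differences without and with the covariate were 0.24 and 0.07 for Ssr3 and 0.24 and 0.07 for Sil1 among folding genes. Among degradation genes they were 0.30 and 0.16 for Ube2j1, 0.23 and 0.07 for Ube2g2, 0.22 and 0.06 for Derl1, and 0.22 and 0.05 for Ube2j2. Regulators gave -0.84 and -0.35 for Creb3l3, the 1 called lower, 0.25 and 0.08 for Eif2s1, 0.23 and 0.06 for Nfe2l2, and 0.21 and 0.05 for Cebpg. All of these passed without the covariate and none with it. The same held for Got1, Psph and Slc1a5, for Eprs, Dars, Wars and Rars, and for Hspd1, Hspe1, Hsf1 and Hspa4, whose differences without the covariate lay between 0.18 and 0.29.

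The time course reached genes beyond the 34. Between 6 and 12 h, 6 of 28 other amino acid genes and 6 of 21 genes of transfer RNA charging and export were lower without the covariate, against 1.45% of all genes tested, and 14 and 16 with it, against 4.93%. From 12 to 24 h, 12 of 28 and 12 of 21 rose, against 4.63%, and 5 and 3 with the covariate, against 0.161%. Examples picked after their values were seen were Nupr1, a stress-induced nuclear protein, at -0.86 ± 0.11 (SE; adjusted p = 3.3e-05) and then 0.54 ± 0.11 (SE; adjusted p = 0.017), and Cth, which makes cysteine, at -0.72 ± 0.11 (SE; adjusted p = 0.00028) and then 0.59 ± 0.11 (SE; adjusted p = 0.0094). With the covariate Nupr1 had -0.81 and 0.32, the second not called, and Cth -0.68 and 0.39. Atf3, a target of Atf4, fell by 0.48 and rose by 0.71 on the log2 scale, with -0.43 and 0.50 in the model with the covariate. Ero1l ran the opposite course, 0.93 ± 0.10 (SE; adjusted p = 1.2e-06) from 6 to 12 h and -0.70 ± 0.10 (SE; adjusted p = 0.00054) from 12 to 24 h, and kept it with the covariate at 0.98 and -0.88.

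Some member values could include reads of a neighbour. Exons of 9 members overlap a gene on the opposite strand, and the sources used here do not state whether counting used strand. The overlapping genes were scarce for most (mean of at most 18.0 CPM), but Syvn1 overlaps Mrpl49, at 156 CPM, and Manf overlaps Dcaf1, at 47.8 CPM, and on its own strand Rbm15b, at 32.9 CPM. Neither Sesn2, Xbp1, Trib3, Chac1, Herpud1, Asns nor Psat1 is among the 9.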

How the data were processed

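RNA of 24 libraries was turned into complementary DNA with SMART-Seq HT and into Nextera libraries, per the labels' protocols. The authors deposited estimated counts and TPM per gene, made with Salmon 0.14.10 on GRCm38.p6, per the submitters' processing notes; its further settings are not stated by the labels. The deposited estimated counts were rounded, scaled by TMM and tested with edgeR 4.0.16 (R 4.3.3): quasi-likelihood F tests, genes kept by filterByExpr, 1 mean for each of 8 groups, all libraries in 1 fit, Benjamini-Hochberg adjustment over 29743 genes, threshold 0.05. A repeat added the log2 share of counts on sensory receptor genes. Scaling factors ran from 0.814 to 1.33. CPM were computed from these counts. The highest small RNA gene held 37.4% to 51.7% of the deposited TPM. Alternatives used DESeq2 1.42.0 and limma 3.58.1 (log2 of TPM + 1). The edgeR fit without the covariate was also run on simulated counts. These held no shift between libraries tied to the receptor share, so that run does not bear on it.

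Members and lists were chosen with earlier results of these data known. Values in every library were given for Hspa5, Xbp1, Atf4, Trib3, Asns and the members called in the mean effect, at 3, 12 or 24 h, or at any time with the covariate, up to 14 by smallest p; of other lists, up to 4 genes by smallest p. Replicate numbers were not used to pair libraries in the main fit. Over 84 same-number pairs the correlation of deviations ran from -0.579 to 0.716 (median 0.0205), with a median of -0.0227 over different-number pairs. The result of 1 gene of these lists is not reported here.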

Additional observations from a re-analysis of the deposited data

How the results depend on the processing

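Calls for the treatment contrasts depended on scaling and on the receptor share, and the cause was not tested. The counts, which without any change were 29 at 6 h, 24 in the mean effect, 8 over time in vehicle, 6 over time with dDAVP, 9 lower at 12 h than at 6 h and 15 higher at 24 h than at 12 h, are given in that order. Those at 6 h and in the mean effect take calls in both directions together. Median-of-ratios scaling gave 18, 15, 4, 1, 3 and 6. Without the filter on low counts they were 4, 13, 5, 2, 4 and 7. With a 5 CPM filter the first 5 were 4, 10, 16, 16 and 17. For dDAVP against vehicle, 1 member each was called at 3 h and 12 h. With the receptor share as a covariate, 0 were called at 6 h, 1 in the mean effect and 15 with dDAVP over time. In that fit 16 were lower at 12 h than at 6 h, and 5 were higher at 24 h than at 12 h. Adding the replicate block to that fit changed these counts to 0, 1, 16, 16 and 4. Adding the 5 CPM filter to it instead gave 0, 2, 22, 18 and 9. That fit also called 15 in vehicle over time and 1 for dDAVP against vehicle at 12 h. Without scaling factors the first 5 counts of the initial order were 1, 6, 13, 16 and 15. The 6 in the mean effect were then Eif2ak3, Xbp1, Atf4, Sesn2, Psat1 and Slc7a11. At a threshold of 0.01 the counts in the initial order were 0, 2, 4, 2, 4 and 4. On log2 of TPM + 1, limma called 2 at 6 h, 5 in the mean effect and 12 with dDAVP over time. It called 6 higher at 24 h than at 12 h. On TPM + 0.1 these counts were 3, 5, 14 and 8. On TPM + 1 without the top small RNA the first 3 of them were 0, 2 and 13. Without the 2 libraries of highest receptor share, 2 were called in the mean effect and 14 with dDAVP over time, and 6 were higher at 24 h than at 12 h. DESeq2 called 5 lower at 12 h than at 6 h.

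The settings without scaling factors and without the top small RNA and all settings of the contrasts between 6, 12 and 24 h were chosen after seeing the data. The replicate numbers were taken as labels only. For 12 of 24 libraries the mean correlation of deviations with libraries of other groups was highest for those of their own number. With the replicate block the counts were 30, 27, 10, 8, 10 and 16. Leaving out 1 library gave 0 to 1 members at 3 h, 0 to 31 at 6 h, 0 to 1 at 12 h, 0 to 0 at 24 h, 2 to 32 in the mean effect, 0 to 0 for dependence on time, 2 to 29 in vehicle, 1 to 9 with dDAVP, 4 to 15 lower at 12 h and 4 to 30 higher at 24 h. The median mean difference of the members ran from -0.05 (limma, TPM + 0.1) to 0.27 (DESeq2).

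Among the values of named genes, 57 changed sign in settings that kept all libraries. With limma on log2 TPM + 1 the mean effects were -0.066 for Hspa5, -0.041 for Trib3, -0.030 for Asns, -0.0067 for Psat1, -0.016 for Dnajc3, -0.10 for Edem1, -0.050 for Hyou1, -0.020 for Slc3a2, -0.023 for Calr, -0.027 for Mthfd2 and -0.072 for Syvn1. On log2 TPM + 0.1 they were -0.067 for Hspa5, -0.043 for Trib3, -0.031 for Asns, -0.0067 for Psat1, -0.018 for Dnajc3, -0.12 for Edem1, -0.053 for Hyou1, -0.020 for Slc3a2, -0.023 for Calr, -0.027 for Mthfd2 and -0.080 for Syvn1. At 6 h the values on TPM + 1 were -0.13 for Hspa5, -0.060 for Trib3, -0.13 for Asns, -0.0031 for Sesn2, -0.069 for Psat1, -0.11 for Dnajc3, -0.074 for Edem1, -0.10 for Hyou1, -0.068 for Slc3a2, -0.047 for Calr, -0.017 for Mthfd2 and -0.12 for Syvn1. Those on TPM + 0.1 were -0.13 for Hspa5, -0.064 for Trib3, -0.13 for Asns, -0.0042 for Sesn2, -0.069 for Psat1, -0.12 for Dnajc3, -0.088 for Edem1, -0.11 for Hyou1, -0.069 for Slc3a2, -0.047 for Calr, -0.018 for Mthfd2 and -0.13 for Syvn1. Without the top small RNA the mean effects were -0.038 for Edem1 and -0.0032 for Syvn1. Hspa5 had a mean effect of -0.0061 with the covariate, -0.022 with the 5 CPM filter added and -0.0030 with the block added, and at 6 h -0.031, -0.069 and -0.025. Asns at 6 h was -0.011, -0.048 and -0.023 in these fits.

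With 3 libraries per group, a difference at 1 time had a standard error near 0.13 on the log2 scale without the covariate for Sesn2. The lowest count of any member in a library was 178, for Ern1; the part of counting error in the spread between libraries was not separated. TPM keep no depth.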
